A study of Rattus norvegicus with 8 samples.

Results

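ADDL then CAT-SKL was the treatment of 2 of the 8 two-colour arrays of the series, and these 2 arrays were chosen by their labels. Primary neurons were prepared from E18 Sprague Dawley rat cortex and hippocampus bought from BrainBits. After 7 days in vitro they first received ADDL at 1 µM for 24 h and then CAT-SKL at 1 µM for 24 h. The other groups, of 2 arrays each, received CAT-SKL alone, ADDL alone, or CAT-SKL followed by ADDL, each agent at 1 µM for 24 h. Which agent came first was read from the sequence in which the labels name them. Cy5 marked the treated RNA and Cy3 that of neurons given vehicle on every array, the dyes were not swapped, and so a positive log2 ratio stands for more RNA after treatment. Replicates are labelled as biological, without naming animals or cultures, and whether 1 vehicle pool served all arrays is not stated. A single treatment lasted 24 h and a sequential one 24 h per agent, and single and sequential treatments occupied different rows of the slide, so, between single and sequential treatments, the agents given, duration and position cannot be told apart.

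ADDL are soluble oligomers of the amyloid-beta peptide, which builds up in the brain in Alzheimer's disease, and in cultured neurons they bind near synapses and raise reactive oxygen species. Catalase breaks down hydrogen peroxide inside peroxisomes, and its own import signal is a weak variant of the carboxy-terminal SKL tripeptide. CAT-SKL is catalase that ends in that tripeptide, made to enter cells and to reach peroxisomes. Giving it after ADDL asks which genes differ from vehicle when the antioxidant arrives in neurons that have already met the oligomers.

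The median spot intensity in Cy5 was 127.5 on replicate 1 and 87.5 on replicate 2, the highest and the lowest of the 8 arrays, over local backgrounds of 25 and 23.5. In Cy3 the medians were 109 and 105. Of the 30367 probes, 79.8% and 73.2% were well above background in Cy5, and with 2 arrays a treatment the precision is limited. The neuronal markers Tubb3, Map2 and Snap25 were well above background in both channels on all 8 arrays, and so were those of astrocytes (Gfap, Aqp4, Slc1a3), of the oligodendrocyte lineage (Pdgfra, Sox10, Mbp), the microglial Aif1 and Cx3cr1, and the fibroblast genes Col1a1 and Dcn. The endothelial gene Pecam1 was well above background in Cy5 on 2 arrays, and the microglial gene Itgam was not tested. In such bulk RNA, fewer cells of a type and less RNA per cell cannot be told apart.

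After ADDL then CAT-SKL, 55 of 22424 genes and accessions were higher than vehicle and 50 lower (limma, ratio against 0, Benjamini-Hochberg adjusted p under 0.05 over all of them). That is 0.468% of those tested, 0.245% higher and 0.223% lower. Treated RNA was in Cy5 on every array, so a dye effect of a probe and a change shared by all treatments cannot be told apart. All 105 had the same sign on both arrays, and their median absolute log2 ratio was 0.43, against 0.07 over all genes. Both follow in part from the choice of these genes by their mean on the same arrays. The changes were small: 8 of the 105 reached 1.5-fold and 0 reached 2-fold. Their adjusted p-values lay between 0.0438 and 0.0497, just inside the threshold, and 3945 genes (17.6%) had an unadjusted p under 0.05. A symbol was available for 63 of the 105, 37 of them higher and 26 lower, and all 63 were well above background in both channels on both arrays.

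The count of genes past the threshold varied with the samples in the fit, which share 1 estimate of spread. An array left alone in its group adds nothing to that estimate. Leaving out either array of CAT-SKL alone therefore gives the same test against vehicle, and so does leaving out either array of ADDL alone. Without either CAT-SKL array or either ADDL array, or without replicate 1 of ADDL then CAT-SKL, 0 genes passed, and without its replicate 2, 1 gene passed. The pair of CAT-SKL then ADDL counts as 1 sample, which has no spread of its own in the fit, so leaving out either of its arrays keeps these 105 by construction. With 8 separate samples in place of 7, 880 genes passed, and with median centring 371 (294 higher and 77 lower). With the deposited ratios, no background subtraction, no filter on dim probes, or the replicate number as a block, 0 genes passed. No sign of the 105 changed with median centring, the deposited ratios or no background subtraction. These genes had been chosen for their distance from vehicle on the same arrays.

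The 2 arrays of the treatment differed from each other across all genes by an SD of 0.161 on the log2 scale, and 61.8% of genes had the same sign on both. On 13358 probes with 2 spots, the SD of the difference between the arrays was 0.145, against 0.103 from spot noise. By the same measure replicate 2 of CAT-SKL alone differed from replicate 1 of ADDL then CAT-SKL by 0.118 and from replicate 2 by 0.151, and the 2 arrays of CAT-SKL alone differed by 0.164. An array of another treatment thus lay as near to these arrays as they did to each other. The gene ratios of each array had a spread of similar size, with an SD of 0.145 on replicate 1 and 0.149 on replicate 2. Fewer genes lay beyond 0.5 on these arrays (0.562% and 0.504%) than on any of the other 6, where the share ran from 0.673% to 2.71%.

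**Figure D1:**
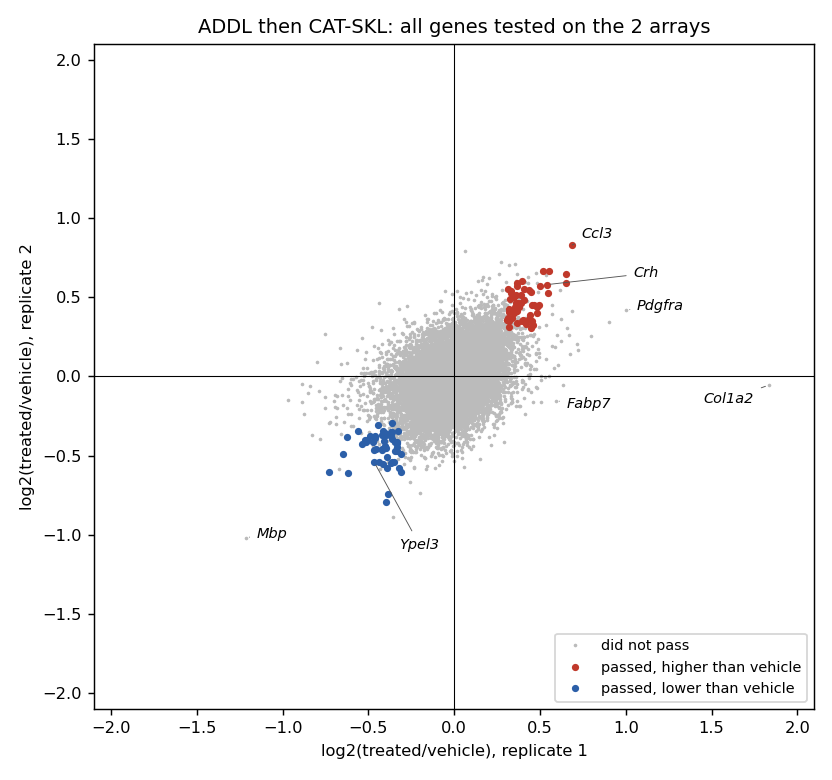
Log2 ratio of treated over vehicle on replicate 1 (x axis) and replicate 2 (y axis) of ADDL then CAT-SKL, 1 point for each of the 22424 genes and accessions tested. Red and blue points are the 55 higher and 50 lower genes that passed the test, which lie beyond 0.29 from 0 on both arrays, whereas Col1a2 was at 1.83 on replicate 1 and at -0.06 on replicate 2.

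Among secreted factors and their receptors, the largest rise of a gene with a symbol was that of Ccl3, a chemokine made mainly by myeloid cells and microglia. Its log2 ratio was 0.69 on replicate 1 and 0.83 on replicate 2, a mean of 0.76 ± 0.10 (SE) or 1.69-fold (adjusted p = 0.0438 by limma). Its signal was low, 132 in Cy5 against 81.8 in Cy3 on replicate 1 and 133 against 74.6 on replicate 2, values that include the offset of 50. Both arrays lay above the other 6, of which CAT-SKL alone gave 0.66 and 0.32, ADDL alone 0.18 and -0.13, and CAT-SKL then ADDL 0.32 and 0.38. Of 21 chemokine, cytokine and NF-kB target genes tested, Ccl3 was the 1 that passed, and the median of the list was 0.04 (0.03 and 0.05 on the 2 arrays) against -0.00 over all genes. Il1b, the inflammatory interleukin, was next with 0.24 and 0.49 and did not pass.

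Crh, the peptide hormone that starts the stress response of the pituitary and adrenal glands, stood at 0.54 and 0.58 (0.56 ± 0.07 SE, 1.47-fold, adjusted p = 0.0438 by limma). Cy5 was 746 against 513 in Cy3 on replicate 1 and 648 against 434 on replicate 2. A different probe of Crh gave 0.60 and 0.62 and also passed when all probes were tested (adjusted p = 0.0486). Crh was above vehicle on the other 6 arrays too, between 0.33 for ADDL alone and 0.91 for CAT-SKL alone, so both values of ADDL then CAT-SKL lay inside that range. Chrm3, a muscarinic acetylcholine receptor, was at 0.41 and 0.55 (0.48 ± 0.06 SE), above the 0.17 to 0.39 of the other arrays.

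Tmx4, Nceh1, Ssr1 and Rtn4 were also among the rises. Tmx4, a membrane-bound thioredoxin-fold protein of the endoplasmic reticulum, was at 0.55 and 0.66 (0.61 ± 0.07 SE, 1.52-fold), and the other arrays lay between 0.18 and 0.50. Nceh1, which hydrolyses cholesterol esters, was at 0.52 and 0.66 (0.59 ± 0.09 SE, 1.51-fold), above all other arrays (0.04 to 0.41). Ssr1, a subunit of the complex beside the protein translocation channel, was at 0.36 and 0.59, and Rtn4, a membrane-shaping protein known as Nogo that limits neurite growth, at 0.50 and 0.45. Tmx4 was 1 of 16 disulphide and thioredoxin-fold genes tested to pass, with a list median of 0.01. Nceh1 was 1 of 27 genes of cholesterol synthesis, uptake and esters, whose median was -0.03. In that list Msmo1, an enzyme of sterol synthesis, was at 0.26 and 0.41, and Idi1, which acts earlier in the same pathway, at -0.25 and -0.43. Neither of these passed.

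Kpna2, an importin that carries proteins into the nucleus, was at 0.55 and 0.53 (0.54 ± 0.08 SE), above the 0.08 to 0.36 of the other 6 arrays. Prps1, which makes the sugar phosphate that nucleotide synthesis starts from, was at 0.39 and 0.60, and Mphosph6, a cofactor of ribosomal RNA processing, at 0.44 and 0.54. For both of them, ADDL alone lay inside or near that range, with 0.35 and 0.52 for Prps1 and 0.50 and 0.52 for Mphosph6. Klf2, a zinc-finger transcription factor, was at 0.48 and 0.40 (0.44 ± 0.06 SE), with the other arrays between -0.01 and 0.30. Hspa8, the constitutive cytosolic chaperone (84691 in Cy5 against 63807 in Cy3 on replicate 1), was at 0.41 and 0.48 (0.44 ± 0.05 SE). It was the 1 cytosolic heat shock chaperone of 15 tested to pass; Hspa4, its nucleotide exchange factor, was at 0.18 and 0.23, and Hsph1 at -0.12 and -0.13, and neither passed.

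The rises also held Plppr4, Slc17a6, Adgre1 and B2m. Plppr4, a phospholipid phosphatase-related protein of glutamatergic synapses, was at 0.45 and 0.53, and Slc17a6, a vesicular glutamate transporter, at 0.36 and 0.47. Slc17a6 was the 1 of 10 excitatory neuron genes tested to pass, and the median of that list was -0.06. Adgre1, a receptor that marks macrophages and microglia in mouse, was at 0.48 and 0.44 with a dim signal (105 against 75.5 and 92.9 against 68.5), and CAT-SKL alone gave 0.65 and 0.50. B2m, the light chain of class I antigen-presenting molecules, was at 0.33 and 0.54, and CAT-SKL then ADDL gave more, 0.61 and 0.66. Of 20 interferon and antigen-presentation genes B2m alone passed (median 0.03). Of 19 microglia markers 0 passed (limma, 2 at an unadjusted p under 0.05, against 17.6% of all genes), with a median of 0.02. In the same samples Aif1 was at 0.00 and 0.14, Cx3cr1 at -0.28 and 0.13 and Trem2 at -0.32 and -0.20. The part of microglial RNA in the values of Ccl3, Adgre1 and B2m was not tested. The other named rise among the 15 largest, Chchd2l3, is a copy of a gene of mitochondrial coiled-coil proteins, was at 0.36 and 0.57, and may share its probe with its relatives.

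Outside the 15 largest, the genes that rose by 0.32 to 0.44 included Gpnmb, a glycoprotein of lysosome-rich cells (0.36 and 0.52), Ezr, which ties the membrane to actin (0.44 and 0.39), and Hspa4l, a relative of the chaperone Hspa4 (0.38 and 0.45). Rpl23, a protein of the large ribosomal subunit, was at 0.32 and 0.43, and Brix1, which helps to assemble that subunit, at 0.32 and 0.35. These and the next genes were chosen after their values were seen. Fzr1, an activator of the ligase that ends mitosis, was at 0.32 and 0.41, and Hus1, a clamp of the DNA damage checkpoint, at 0.31 and 0.36. A further probe of Hus1 was at -0.03 and 0.03.

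The largest fall of a gene with a symbol was that of Ypel3, a small zinc-binding protein linked to growth arrest, at -0.47 and -0.54 (-0.50 ± 0.07 SE, adjusted p = 0.0438 by limma). The other 6 arrays lay between -0.22 and -0.49 for it, both of these with ADDL alone. Among genes of vesicle traffic, Vamp2, the synaptic vesicle protein that drives transmitter release, was at -0.47 and -0.46 (-0.46 ± 0.06 SE), with Cy5 at 4682 against 6467 in Cy3 on replicate 1 and 3805 against 5246 on replicate 2. Epn1, an adaptor of clathrin-mediated endocytosis, was at -0.44 and -0.54 (-0.49 ± 0.06 SE), below the -0.19 to -0.32 of the other 6 arrays. Vamp2 was low with ADDL alone as well (-0.51 and -0.36), and ADDL alone and ADDL then CAT-SKL overlapped for it. Vamp2 was 1 of 24 presynaptic release genes to pass, and the median of the list was -0.05, with 11 members below 0 and 6 above 0 on both arrays.

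Ncam1, the neural cell adhesion molecule, fell to -0.31 and -0.49 (-0.40 ± 0.06 SE), 1 of 16 neuronal identity genes tested and the 1 that passed. Robo1, an axon guidance receptor, was at -0.37 and -0.38, and Gng13, a G protein subunit, at -0.42 and -0.46, both past the threshold. For Gng13 the other 6 arrays lay between -0.13 and -0.30, above both values.

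Ubtf, the factor that opens ribosomal DNA for RNA polymerase I, was at -0.54 and -0.43 (-0.48 ± 0.07 SE), whereas the other 6 arrays ran from -0.31 to 0.06. Rsl24d1, which takes part in assembling the large ribosomal subunit, was at -0.35 and -0.54 (-0.45 ± 0.07 SE). It was at -0.24 and -0.30 with ADDL alone and above vehicle on the other 4 arrays, at 0.21 and 0.07 with CAT-SKL alone and 0.21 and 0.16 with CAT-SKL then ADDL. Pogz, a zinc-finger protein of heterochromatin, was at -0.36 and -0.30 (-0.33 ± 0.05 SE), and the other arrays lay between -0.06 and 0.18. Foxp1, a forkhead transcription factor of cortical neurons, was at -0.41 and -0.34. It was similarly low with CAT-SKL alone (-0.31 and -0.44) and CAT-SKL then ADDL (-0.46 and -0.49), and at -0.03 and -0.10 with ADDL alone.

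Hspa9, the chaperone of the mitochondrial matrix, was at -0.36 and -0.54 (-0.45 ± 0.07 SE), and ADDL alone gave nearly the same (-0.33 and -0.36), while the other 4 arrays lay between -0.13 and 0.10. Timm17b, a subunit of the channel that imports proteins into mitochondria, was at -0.35 and -0.47, Stoml2, a scaffold of the inner membrane, at -0.33 and -0.35, and Alas1, which starts haem synthesis, at -0.44 and -0.31. These 3 were picked after their values were seen. Of 30 oxidative phosphorylation subunits 0 passed (limma, 13 at an unadjusted p under 0.05, against 17.6% of all genes). On both arrays 13 were above 0 and 12 below 0, and the list had a median of -0.04. Ak5, an adenylate kinase of neurons, was at -0.39 and -0.51, below the -0.30 to 0.05 of the other arrays. Selenow, a small selenoprotein, was at -0.31 and -0.60, and Emc9, a subunit of a complex that inserts membrane proteins into the endoplasmic reticulum, at -0.52 and -0.40. Rbp4, the carrier of retinol, was at -0.52 and -0.41, and Efemp2, a protein of elastic fibres, at -0.37 and -0.55. Albfm1, Gpank1 and Ptges3l1 complete the 15 largest falls with means of -0.48, -0.44 and -0.45, and Ptges3l1 is a copy of another gene and may share its signal.

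**Figure D2:**
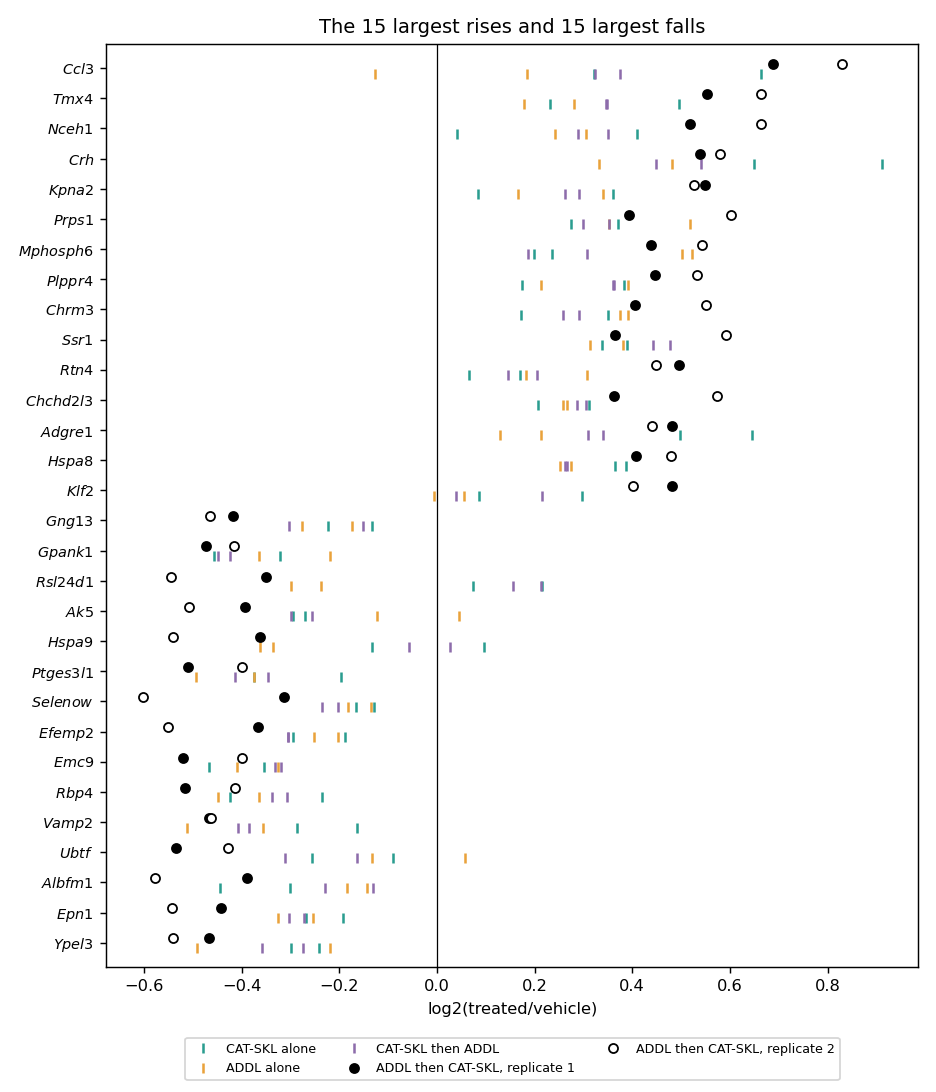
Log2 ratio of treated over vehicle (x axis) of the 15 largest rises and 15 largest falls among genes with a symbol that passed the test. Black and open circles are the 2 arrays of ADDL then CAT-SKL and coloured ticks the other 6 arrays; Tmx4, Nceh1, Kpna2 and Rtn4 lay beyond all ticks, whereas Crh and Vamp2 lay among them.

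The promoters of genes that fell together are shown because 7 of the 22 lowered genes with a promoter in the RefSeq table (GRCr8) held TGACGT, the core of the cAMP response element, in the 250 bases before the start, on either strand. That was 31.8% of the lowered genes, 13.3% (4 of 30) of the raised genes and 9.57% of 10570 tested genes with a promoter in the table. The motifs were picked with the calls known, so these shares are a description, and a match is not a binding site. GAANNTTC, the paired unit of the heat shock element, was in 3 of 30 raised genes (10%), among them Hspa8, in 1 of 22 lowered genes (4.55%) and in 5.09% of tested genes. GGGCGG, the core bound by SP1, was in 56.7% of the raised, 54.5% of the lowered and 51.3% of the tested genes. Each sequence below runs 5′ to 3′ on the strand of its gene, with the motif in capitals (ACGTCA is TGACGT read on the opposite strand, and the Hspa8 promoter holds GAANNTTC at 2 places). They lie at chr10:54292539-54292788 (+) for Vamp2, chr15:33046057-33046306 (-) for Emc9, chr8:82733377-82733626 (+) for Rsl24d1 and chr8:50080264-50080513 (+) for Hspa8.
Vamp2: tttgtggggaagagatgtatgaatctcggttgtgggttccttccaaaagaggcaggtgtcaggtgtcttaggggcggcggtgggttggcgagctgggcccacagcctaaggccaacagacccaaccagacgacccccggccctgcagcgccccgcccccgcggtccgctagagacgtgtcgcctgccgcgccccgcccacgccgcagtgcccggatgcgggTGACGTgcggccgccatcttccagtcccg
Emc9: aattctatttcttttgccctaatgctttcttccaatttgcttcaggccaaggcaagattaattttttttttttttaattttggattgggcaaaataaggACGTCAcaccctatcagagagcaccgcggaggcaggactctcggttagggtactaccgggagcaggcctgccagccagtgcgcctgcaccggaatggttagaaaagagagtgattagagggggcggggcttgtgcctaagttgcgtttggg
Rsl24d1: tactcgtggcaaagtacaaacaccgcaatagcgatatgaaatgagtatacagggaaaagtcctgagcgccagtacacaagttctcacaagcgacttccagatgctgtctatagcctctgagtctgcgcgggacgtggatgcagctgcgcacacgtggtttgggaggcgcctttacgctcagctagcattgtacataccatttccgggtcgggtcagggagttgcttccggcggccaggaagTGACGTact
Hspa8: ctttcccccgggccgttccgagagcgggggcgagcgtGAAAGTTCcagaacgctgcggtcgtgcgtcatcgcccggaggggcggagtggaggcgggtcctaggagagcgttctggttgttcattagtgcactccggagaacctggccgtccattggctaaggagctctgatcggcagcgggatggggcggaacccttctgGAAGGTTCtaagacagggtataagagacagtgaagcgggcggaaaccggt
The match in Vamp2 starts 29 bases before the start of the gene, that in Emc9 151 bases and that in Rsl24d1 9 bases before it.

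For 21 of the 63 named changes the arrays carried 24 further probes of the same gene, and 14 of these had the same sign and 10 the opposite one. That of Crh was the 1 further probe that passed. The further probes of Hspa8 were at 0.05, 0.02 and -0.15, that of Rtn4 at -0.15, that of Nceh1 at 0.05, that of Tmx4 at 0.15 and that of Plppr4 at -0.14. Those of Prps1 (0.18), Ssr1 (-0.03), Mphosph6 (-0.13), Chchd2l3 (-0.10), Ubtf (-0.12) and Pogz (0.05) also lay closer to 0 than the probe used. The change of these genes thus held for their brightest probe, and whether the probes read different transcripts was not tested. Ccl3, Kpna2, Chrm3, Klf2, Adgre1, Vamp2, Epn1, Ypel3, Rbp4 and Emc9 had no further tested probe.

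Cat, the gene of the enzyme from which CAT-SKL is made, was at -0.25 and -0.28 (-0.26 ± 0.09 SE) and did not pass (adjusted p = 0.203 by limma). With ADDL alone it was at -0.48 and -0.03. Of 19 genes of peroxide and superoxide removal 0 passed (limma, 8 at an unadjusted p under 0.05, against 17.6% of all genes). On both arrays 6 were above and 8 below vehicle. Sod2, the mitochondrial superoxide dismutase, was at 0.26 and 0.33, Glrx, a glutaredoxin, at 0.20 and 0.23, and Prdx4, the peroxiredoxin of the endoplasmic reticulum, at -0.16 and -0.24. Of 26 genes of peroxisome import and enzymes 0 passed (limma, 3 at an unadjusted p under 0.05, against 17.6% of all genes), with a median of -0.01. Pex11a, which acts in peroxisome division, was at 0.14 and 0.34.

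The 20 NRF2 targets, genes of the transcription factor that answers oxidants, had a median of 0.07. They held 0 that passed (limma, 7 at an unadjusted p under 0.05, against 17.6% of all genes). Hmox1, which degrades haem, was at 0.57 and 0.45, and Slc7a11, the cystine importer, at 0.41 and 0.60, with adjusted p-values of 0.0802 and 0.0698 by limma. With ADDL alone their means were 0.57 and 0.40. A further probe of Slc7a11 was at 0.04 and 0.13 after ADDL then CAT-SKL. Taldo1, an enzyme of the pentose phosphate pathway, was at -0.17 and -0.25, and Srxn1, which repairs oxidised peroxiredoxins, at 0.18 and 0.22. Among 10 NADPH oxidase subunits 0 passed (limma, 3 at an unadjusted p under 0.05, against 17.6% of all genes). Rac2 was at 0.38 and 0.51, Nox1 at 0.32 and 0.70 and Cyba at 0.58 and 0.05. Of 606 genes on the 31 lists 9 passed (1.49%, against 0.468% of all genes), and each stands above: Ccl3, Tmx4, Nceh1, Crh, Hspa8, B2m and Slc17a6 higher and Ncam1 and Vamp2 lower. The lists were chosen with earlier results of these data known, so these shares are a description and no test of the lists.

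**Figure D3:**
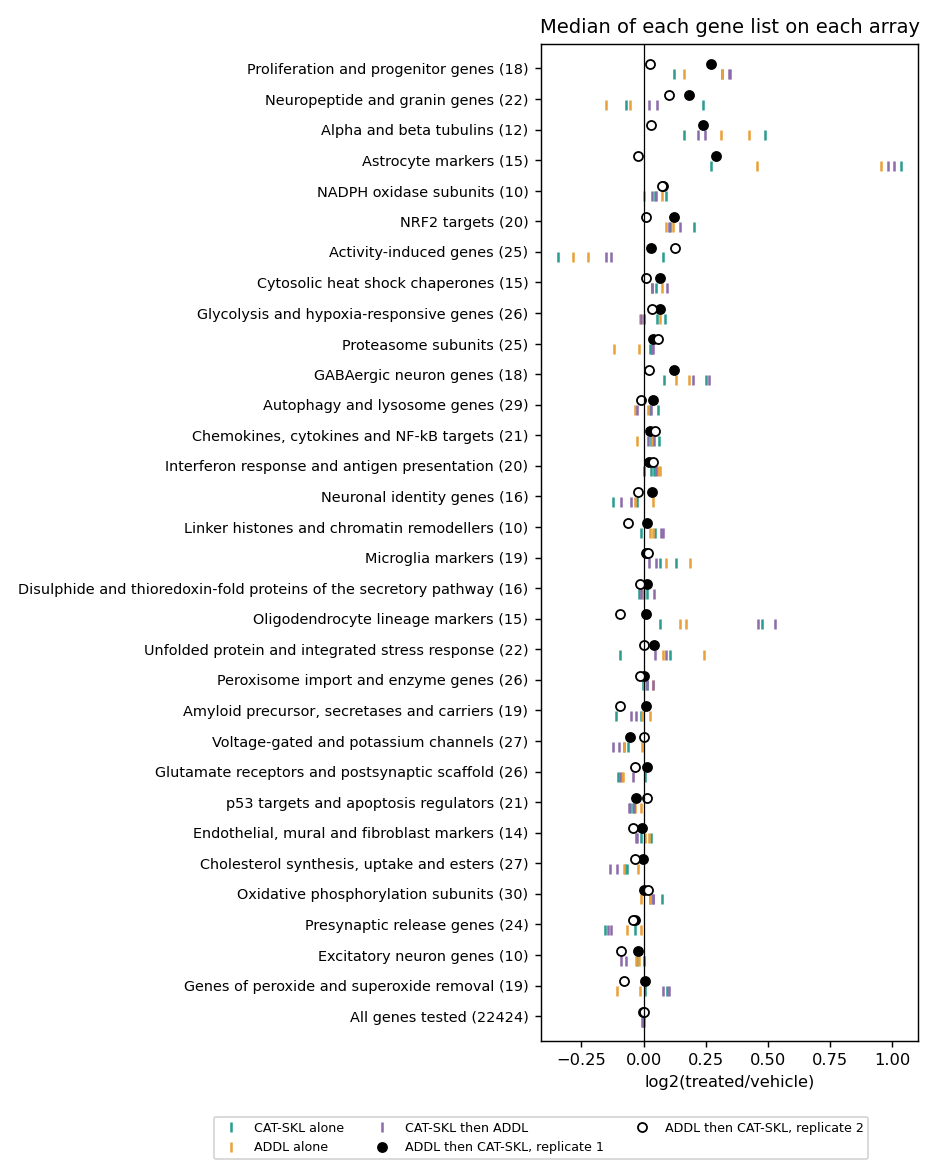
Median log2 ratio of treated over vehicle (x axis) of each of 31 gene lists and of all genes, with the number of genes tested in parentheses. Circles are the 2 arrays of ADDL then CAT-SKL and ticks the other 6; the astrocyte list was at 0.29 and -0.02 on the circles and between 0.27 and 1.04 on the ticks.

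The treatment differed from the other treatments in 0 genes past the threshold (0% called in each comparison). By limma, 1889 genes (8.42%) had an unadjusted p under 0.05 against ADDL alone, 1264 (5.64%) against CAT-SKL then ADDL and 2247 (10%) against CAT-SKL alone, and the lowest adjusted p-values were 0.570, 0.797 and 0.446. The smallest p against ADDL alone belonged to 5 genes. Cdh6, a cadherin, was at -0.36 and -0.37 against vehicle, a difference of -0.73 ± 0.13 (SE) from ADDL alone (mean 0.36). Crem, a repressor and activator of cAMP-responsive genes, was at 0.09 and 0.26, 0.70 ± 0.12 higher than with ADDL alone (mean -0.53). Man1a1, which trims mannose from glycoproteins, was at 0.37 and 0.38 (0.57 ± 0.09 higher), Srxn1 was 0.52 ± 0.09 higher and Sstr3, a somatostatin receptor, 0.44 ± 0.07 higher, each with an adjusted p of 0.570.

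Against CAT-SKL then ADDL, the treatment in the same row of the slide, the smallest p belonged to Septin7, a cytoskeletal filament protein, at a difference of -0.81, Rsl24d1 at -0.63, Pogz at -0.50, Sfxn1 at 0.79 and Xpnpep2 at 0.67. The last pair rested on replicate 2 of CAT-SKL then ADDL, which stood at -1.63 for Sfxn1 and -1.25 for Xpnpep2, while ADDL then CAT-SKL was at 0.09 and -0.07 for Sfxn1 and 0.02 and 0.00 for Xpnpep2. Against CAT-SKL alone they were Septin7 (-0.67), Rsl24d1 (-0.59), C14h4orf19 (-0.53), Nfxl1 (0.50) and Pogz (-0.39). Septin7 was at -0.23 and -0.57 against vehicle and did not pass there.

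Activity-induced genes, which neurons transcribe when calcium enters at synapses, gave the widest gap to ADDL alone among the lists on the upper side with loess normalisation, whereas with the deposited ratios the neuropeptide list had the wider one (0.40 against 0.35). The median of the 25 genes was 0.03 and 0.13 on the 2 arrays of ADDL then CAT-SKL and -0.22 and -0.29 on those of ADDL alone. The difference had a median of 0.32, with 21 of 25 genes above 0 and 15 (60%) at an unadjusted p under 0.05, against a median of -0.01, 47.4% above 0 and 8.42% over all genes, and 0 of the 25 passed after adjustment (lowest adjusted p = 0.570 by limma). Arc, a regulator of synaptic receptors, was at 0.22 and 0.26 after ADDL then CAT-SKL and at -0.40 and -0.48 with ADDL alone. Egr2, a zinc-finger transcription factor, was at 0.27 and 0.41 against -0.37 and -0.36, and Egr4 at 0.03 and 0.33 against -0.54 and -0.61. Inhba, an activin subunit, was at -0.05 and -0.17 against -0.87 and -0.95. For these 4 genes, picked after their values were seen, the arrays of the 2 treatments did not overlap. The share of all genes that separate in this way was not counted.

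The exceptions were Egr3, Nr4a3, Btg2 and Per1, which were lower than or near ADDL alone; Btg2, an antiproliferative gene, was at -0.26 and -0.25 after ADDL then CAT-SKL. Fos was at 0.25 and 0.28 and Nptx2, a secreted synaptic pentraxin, at 0.27 and 0.43, and neither passed against vehicle. Against CAT-SKL then ADDL the median difference of the list was 0.21 (19 of 25 above 0) and against CAT-SKL alone 0.18 (21 of 25). The arrays of CAT-SKL alone differed from each other, with list medians of -0.34 on replicate 1 and 0.08 on replicate 2, and replicate 2 thus lay between the arrays of ADDL then CAT-SKL. With median centring the median difference from ADDL alone was 0.40 and with the deposited ratios 0.35, with 21 of 25 above 0 in both.

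Neuropeptide and granin genes lay with them. Of 22 tested, Crh passed against vehicle and 15 were above 0 on both arrays (list median 0.13, 0.18 on replicate 1 and 0.10 on replicate 2). The difference from ADDL alone had a median of 0.19, 16 of 22 being above 0 and 11 (50%) at an unadjusted p under 0.05. Over all genes these shares were 47.4% and 8.42%. The median difference was 0.23 with median centring (18 of 22 above 0) and 0.40 with the deposited ratios (17 of 22). Pdyn, the dynorphin precursor, was at 0.48 and 0.66 against -0.37 and -0.37 with ADDL alone, and Scg2, a granin of secretory granules, at 0.43 and 0.48 against -0.30 and -0.31. Tac1, the precursor of substance P, was at 0.32 and 0.54 against -0.36 and -0.39, and Penk, the enkephalin precursor, at 0.49 and 0.53 against -0.23 and -0.38. Gal, the galanin gene, was at 0.07 and 0.19 against -0.82 and -0.73. These 5 genes, picked after their values were seen, were above vehicle on both arrays of ADDL then CAT-SKL and below it on both of ADDL alone. None of them passed, and the share of all genes with this pattern was not counted. Npy (0.39 and 0.36) and Cort (0.61 and 0.54), which GABAergic neurons make, were above vehicle on all 8 arrays. Against CAT-SKL alone the list had a median difference of 0.02, with 11 of 22 genes above 0.

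**Figure D4:**
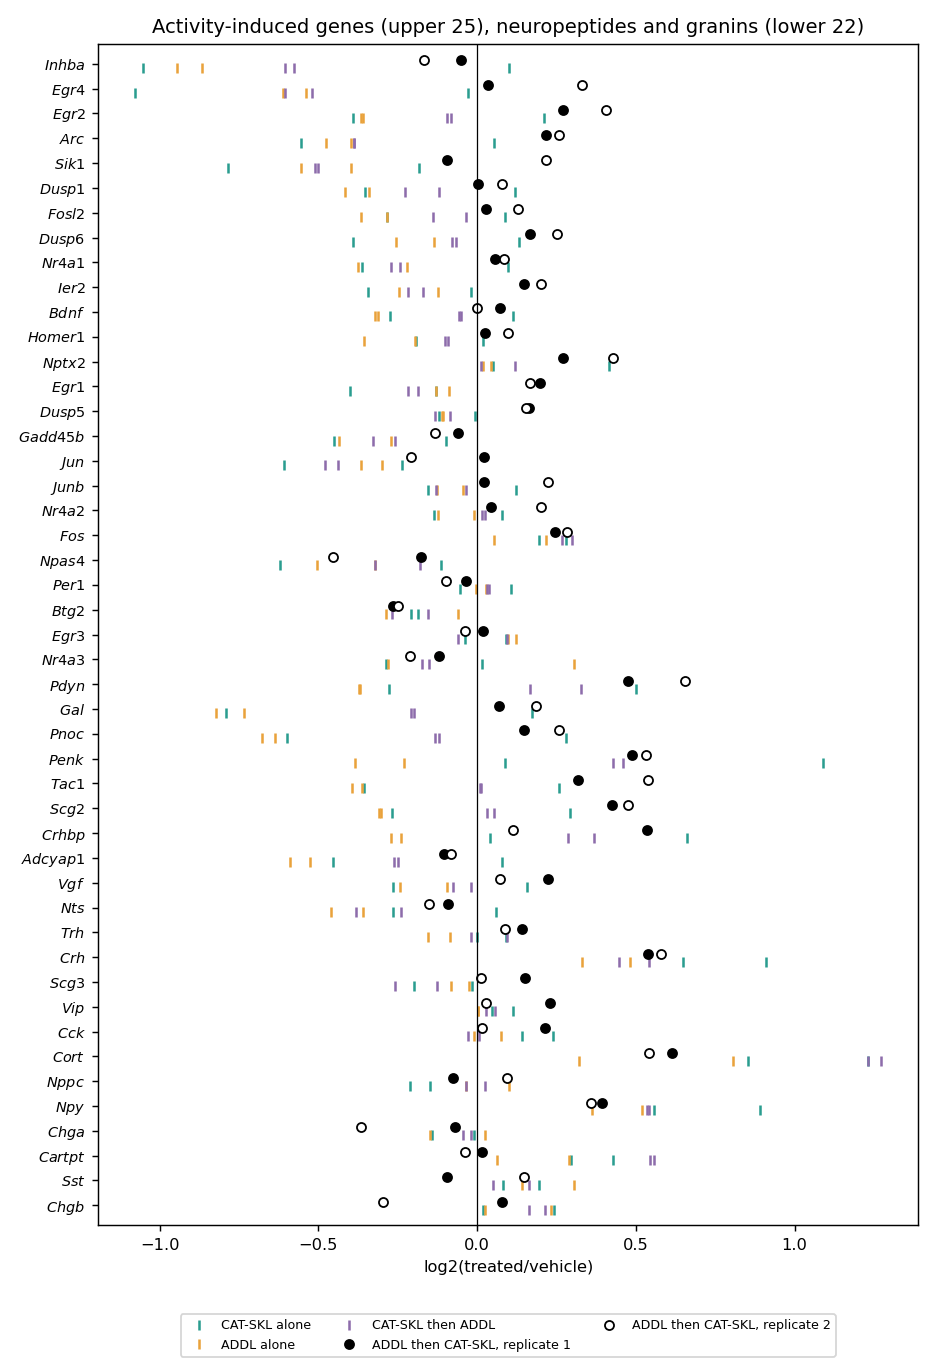
Log2 ratio of treated over vehicle (x axis) of all 25 activity-induced genes (upper rows) and all 22 neuropeptide and granin genes (lower rows), each ordered by the difference from ADDL alone. Circles are the 2 arrays of ADDL then CAT-SKL and ticks the other 6. From Inhba to Homer1 the circles lie right of both ADDL ticks, and the rows were ordered by this same difference.

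Against ADDL alone, leaving out replicate 1 or replicate 2 of CAT-SKL alone gives the same test by construction, because the array left has no spread of its own. The test turned on these 2 arrays, which entered the shared estimate of spread. Leaving out either of them gave 13 genes past the threshold, 12 higher and 1 lower, with 5 neuropeptide or granin genes (Gal, Pdyn, Penk, Pnoc, Scg2) and the activity-induced Inhba among them. These 13 are named because they passed in that setting, which was seen in the data, and 0 of them passed with both arrays in the fit of the loess-normalised ratios. With median centring and both arrays kept, 11 of the 13 passed, all but Inhba and Penk. The 1 lower gene was Cdhr1, a cadherin known from photoreceptors. It was at 0.13 and 0.03 after ADDL then CAT-SKL, at 2.28 and 2.17 with ADDL alone and at 1.82 on both arrays of CAT-SKL then ADDL. With CAT-SKL alone it was at 2.43 on replicate 1 and 0.11 on replicate 2. Thus both arrays of ADDL then CAT-SKL and replicate 2 of CAT-SKL alone lay near vehicle, and the other 5 arrays far above it.

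The 12 other genes were higher than with ADDL alone, and on all of them replicate 2 of CAT-SKL alone stood above its replicate 1. Alkal2, a ligand of the ALK receptor, was at 0.35 and 0.47, against -0.64 and -0.63 with ADDL alone, and the arrays of CAT-SKL alone were at -0.78 and 0.38. Gprc5a, an orphan receptor induced by retinoic acid, was at 0.29 and 0.34, against -0.81 and -0.76, with CAT-SKL alone at -0.85 and 0.36. Emp1, a small membrane protein of epithelia, was at 0.24 and 0.16, against -0.81 and -0.89, with CAT-SKL alone at -0.71 and 0.52. For these 3 genes CAT-SKL then ADDL lay between, from -0.32 to -0.08. Ucn, a peptide of the Crh family, was at 0.30 and 0.60 against -0.67 and -0.66, Tnfrsf12a, a receptor of the TNF family, at 0.33 and 0.32 against -0.42 and -0.43, and Slc40a1, the iron exporter, at 0.31 and 0.37 against -0.42 and -0.44. With median centring 30 genes passed against ADDL alone, 26 higher and 4 lower, and 5 of the 30 were neuropeptide or granin genes.

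Astrocyte markers gave the widest gap on the lower side. The median of the 15 genes was 0.29 on replicate 1 and -0.02 on replicate 2, against 0.46 and 0.95 with ADDL alone, 1.01 and 0.98 with CAT-SKL then ADDL and 1.04 and 0.27 with CAT-SKL alone. The difference from ADDL alone had a median of -0.68, with 14 of 15 genes below 0 and 10 (66.7%) at an unadjusted p under 0.05, and 0 passed (lowest adjusted p = 0.570 by limma). Over all genes 47.4% were above 0 and 8.42% had an unadjusted p under 0.05. Slc1a3, a glutamate transporter of astrocytes, was at 0.51 and -0.02, and Aqp4, their water channel, at 0.33 and -0.06. Gfap, their intermediate filament, was at 0.06 and -0.19, and Ndrg2 at 0.72 and 0.17. Replicate 2 was below replicate 1 for all 4 with the probe used. Further probes of Aqp4 were at -0.08 and -0.17 and at -0.03 and -0.01. The median difference was -0.65 with median centring and -0.82 with the deposited ratios. The part of astrocyte RNA in the other differences from ADDL alone was not tested.

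Oligodendrocyte lineage genes had a median of -0.00 against vehicle and of -0.20 against ADDL alone, 12 of 15 being lower. Mbp, the myelin basic protein, was at -1.21 and -1.02 (-1.12 ± 0.29 SE, adjusted p = 0.116 by limma), below the -0.78 to 0.89 of the other 6 arrays, but a different probe of Mbp was at -0.01 and 0.12. Pdgfra, the receptor of oligodendrocyte precursors, was at 1.00 and 0.42, and Sox10, a transcription factor of the lineage, at 0.13 and 0.08. Proliferation and progenitor genes had medians of 0.27 and 0.03, with Rrm2, a subunit of ribonucleotide reductase, at 0.90 and 0.34. A further probe of Rrm2 was at 0.16 and -0.10. Of the 18 proliferation genes, 16 were lower than with ADDL alone (median difference -0.10). So were 17 of 19 microglia markers (-0.15) and 11 of 12 tubulins (-0.22). Of 22 genes of the unfolded protein and integrated stress responses, 19 were lower than with ADDL alone (median difference -0.13), but with median centring 13 were (-0.06). In the deposited ratios 4 of the 22 were above ADDL alone (median difference -0.16). Of 25 proteasome subunits 22 were higher than with ADDL alone (median difference 0.11), a difference of 0.24 with all 25 above 0 under median centring and of 0.09 with 23 above 0 in the deposited ratios. The proteasome median was 0.04 and 0.06 on the arrays of ADDL then CAT-SKL and -0.12 and -0.02 with ADDL alone. That of the stress list was 0.04 and 0.00 against 0.24 and 0.08. For both lists replicate 1 of ADDL alone lay farther off than its replicate 2. Over all genes 47.4% were higher than with ADDL alone. With loess 0 of these lists' genes passed against ADDL alone.

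The gap between the 2 arrays was widest for Col1a2, a collagen chain, at 1.83 on replicate 1 and -0.06 on replicate 2. Other matrix genes were mixed. Col1a1, the partner chain of Col1a2, was at -0.00 and -0.06 with the probe used but at 2.28 and 0.39 with a further probe. Col3a1 was at 0.21 and 0.11, and Dcn at -0.38 and -0.33. Ttc36 at -0.80 and 0.09, Uncx, a homeobox transcription factor, at -0.97 and -0.15, and Rfx5, a factor of class II genes, at -0.89 and -0.16 were lower on replicate 1, and so was Otor at 0.06 and 0.79. Fmod and Bgn, proteoglycans of the matrix, were at 0.63 and -0.05 and at 0.15 and -0.52, and Tagln, an actin-binding protein of smooth muscle and fibroblasts, at 0.21 and -0.43. Fabp7, a fatty acid binding protein of radial glia, was at 0.59 and -0.15. For these genes the mean of the treatment describes neither array. Pcsk1, which cuts peptide precursors, was also lower on replicate 1, with -0.51 and 0.15.

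**Figure D5:**
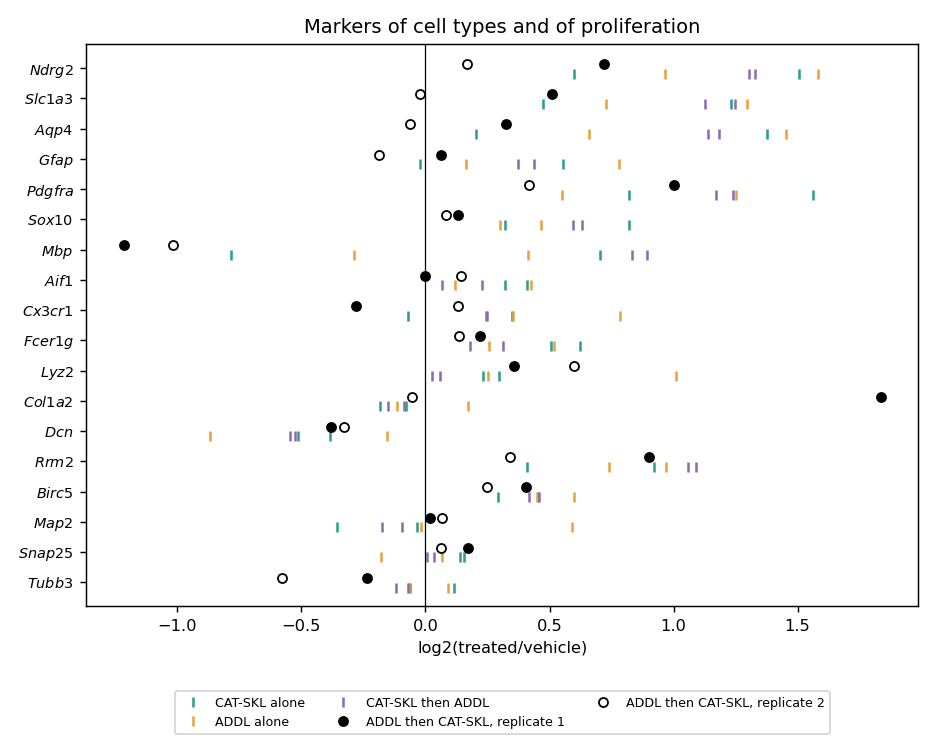
Log2 ratio of treated over vehicle (x axis) of markers of astrocytes, the oligodendrocyte lineage, microglia, fibroblasts, dividing cells and neurons, chosen from the marker lists for display. Circles are the 2 arrays of ADDL then CAT-SKL and ticks the other 6; both circles of Mbp lie left of all ticks and those of Col1a2 lie far apart.

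Relative to the other treatments, the called genes stood on the same side of vehicle for the most part. Of the 105, 87 (82.9%) had the same sign on all 8 arrays, 48 higher and 39 lower, against 15.5% of all genes tested. The 105 were chosen by their distance from vehicle on 2 of these 8 arrays, so the gap follows in part from that choice. Because treated RNA was in Cy5 throughout and all arrays were set against vehicle, a dye effect of a probe and a change shared by all treatments cannot be told apart. The median of the 55 higher genes was 0.39 and 0.45 on the 2 arrays of ADDL then CAT-SKL and between 0.23 and 0.31 on the other 6. That of the 50 lower genes was -0.40 and -0.43, against -0.20 to -0.26. Of the 105, 59 lay farther from vehicle on both arrays than on each of the other 6, a condition that 2404 of all 22424 genes tested (10.7%) met, and the genes had been chosen for their distance from vehicle. Of genes beyond 0.5 from vehicle on both arrays and outside the range of the other 6, those with a symbol were Ccl3, Tmx4, Nceh1, Kpna2 and Mbp.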

How the data were processed

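The 8 samples were hybridised to Agilent arrays in 2 colours, each with 62976 spots (58717 non-control spots for 30367 probes). Per the file headers, the deposited files give the median intensity of each spot and of its surroundings in both channels, unnormalised. They also give log10 ratios, Cy5 over Cy3, made by Agilent Feature Extraction 11.5 per the submitters' processing notes. The log10 ratios of the deposited series table matched them within 0.00500 and had a median of 0, treated over vehicle.

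Here the intensities went through normexp background correction (offset 50) and loess within each array (control spots had weight 0) in limma 3.58.1 under R 4.3.3. Spots flagged as outliers (985 and 1078 on the arrays of ADDL then CAT-SKL) were dropped before averaging per probe. A probe was kept if Cy5 or Cy3 was well above background on 2 or more of the 8 arrays (25323, of which 65 lacked a value and 25258 were tested). The brightest probe stood for a gene (2581 had several). Symbols came from matching accessions to the RefSeq table of GRCr8 (17998 of 30367 probes, 12916 of 22424 genes and accessions tested).

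All groups shared 1 limma fit (lmFit, eBayes, two-sided, Benjamini-Hochberg, threshold 0.05). The 2 arrays of CAT-SKL then ADDL differed by about spot noise (SD ratio 1.01, r of first-spot and second-spot differences 0.00720, against 0.291 to 0.709 for the 27 other pairs) and were averaged, so the fit had 7 samples, with 3 residual and 5.10 prior degrees of freedom. Vehicle was tested as a ratio against 0, which leaves out the spread of vehicle cultures, and the p-values reflect only how far these samples spread, which may be technical. Errors are limma standard errors. Functions were tested on simulated data.

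The members and gene lists were chosen with earlier results of these data known. Named genes were the 15 largest rises and 15 largest falls with a symbol, list members that passed or otherwise up to 3 with the smallest p, the 5 genes with the smallest p in each contrast without a call, defining markers, and Cat. Not every gene that the rule selects is listed. Alternatives were 8 samples, median centring, the deposited ratios, no background subtraction, 2 other filters, all probes, only the 2 arrays, the replicate number as a block, and each array left out. Median signals were used because the tables hold medians. Promoter sequences are RefSeq's (GRCr8). The arrays were designed on another build, so no probe coordinates are given.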

Additional observations from a re-analysis of the deposited data

How the results depend on the processing

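The 105 changes against vehicle lay just inside the threshold, and their count depended on the setting. It was 880 with 8 separate samples, 371 with median centring (294 higher, 77 lower), 114 with probes above background in both channels, 87 with all probes tested, and 1 (Mbp) with only the 2 arrays of the treatment in the fit. It was 0 with the deposited ratios (limma, 2878 at an unadjusted p under 0.05), 0 without background subtraction (3706), 0 without a filter on dim probes (4331, with 26845 genes tested) and 0 with the replicate number as a block (3658). Leaving out 1 array gave 0 to 105, the 105 without either array of CAT-SKL then ADDL, whose pair counts as 1 sample; the 1 gene left without replicate 2 of ADDL then CAT-SKL was Col1a2. Of the 105, 86 passed with median centring and 103 of 104 with both channels above background. The 105 had been chosen for their distance from vehicle on the same arrays. None changed sign with median centring, the deposited ratios or no background subtraction, the 3 settings that change the ratios themselves. The cause was not tested, beyond the fewer samples or more genes that some settings hold by construction.

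Against ADDL alone, the count of 0 became 30 with median centring, and 0 to 13 with 1 array left out (13 without either array of CAT-SKL alone; without replicate 2 of ADDL alone, Psmd13 and an accession without symbol). Against CAT-SKL then ADDL it became 5 with median centring (Mgp, Mbp, Bcas1, Cdkn1c and an accession) and 0 to 4 with 1 array left out. Against CAT-SKL alone it was 0 to 3 with 1 array left out (Cdhr1, Alkal2 and Gprc5a without its replicate 2). In the other settings run for these 3 comparisons, the replicate block included, the count was 0. The fits without either array of CAT-SKL alone give the comparison with ADDL alone the same result by construction. The replicate numbers did not pair the samples: the differences between replicates of 2 treatments correlated across genes at -0.20 to 0.08. Of 1511 values of the 89 named genes that did not pass, 13 changed sign. Most settings keep the mean of ADDL then CAT-SKL, so most of these values could not change sign. The mean changes with median centring, the deposited ratios, no background subtraction, or without 1 of the arrays of ADDL then CAT-SKL. The list differences under other scalings were added after the data had been seen. With 2 arrays a treatment, small differences were not detectable.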
